A study of Mus musculus with 4 samples.

Results

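The genes described here encode receptors that take naive CD4 T cells into lymph nodes, position them there and let them out again. They were named as a list of 9 genes: Ccr7, S1pr1, S1pr4, Cxcr4, Gpr18, Gpr183, Itgal, Itga4 and Itgb7, out of 48858 genes with deposited values. All 9 were among the 12863 genes that passed the filter on low counts. The study compared 2 libraries from wild-type mice (WT) with 2 libraries from double-knockout mice (DKO). All of the mice carried loxP-flanked alleles of Btg1 and Btg2 (Btg1f/f Btg2f/f); the DKO mice also carried CD4-Cre, a recombinase driven by Cd4 regulatory sequences that acts in developing and mature T cells, and the WT mice were littermates without it. The cells were TCRb+ CD4+ cells sorted without CD25, with low CD44 and with a further gate for naive cells, and rRNA-depleted total RNA was sequenced. No treatment was given, the age of the mice is not stated, and nor is any pooling of cells from several mice. Since the labels speak of pairs of mice, each library is taken to be 1 animal. CD4-Cre also acts in CD8 and regulatory T cells, which pass through a stage with CD4.

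A naive T cell enters a lymph node when CCR7 senses chemokines on the vessel wall and the integrin LFA-1, built from the αL chain (Itgal) and the β2 chain (Itgb2), locks it in place. It leaves by following sphingosine phosphate, a lipid that is abundant in blood and lymph and is sensed by S1PR1, while CD69 holds S1PR1 inside activated cells. GPR183 follows oxysterols to the border of the follicle, and the α4 chain pairs with β7 or β1 for entry into gut and other tissues. KLF2 and FOXO1 are transcription factors known to drive several of these genes in naive T cells, and BTG1 and BTG2 recruit the deadenylase complex that shortens poly(A) tails.

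Both targets were nearly absent from DKO. Btg1 had 7378 and 5443 estimated counts in WT against 103 and 125 in DKO, and Btg2 had 1295 and 1067 against 5 and 7. Library totals lay between 13889894 and 17827631 estimated counts. TMM factors, which set the scale between libraries, were 0.947 and 0.838 in WT and 1.03 and 1.22 in DKO, and the fragment length implied by the deposited effective lengths was 123.8 and 119.8 bases in WT and 133.5 and 142.2 in DKO. Both measures separated the genotypes, and their part in the results was not tested. The T cell markers Cd3e, Cd3d, Cd3g, Cd4, Lck, Trac and Cd28 were present in every library, with Cd3e at 244 to 298 CPM (counts per scaled library size, as edgeR gives them). S100a8 and Ncr1, markers of neutrophils and NK cells, were at 0 in all 4 libraries. Of 8 markers of regulatory T cells, 7 were higher in both DKO libraries than in both WT libraries. Among all tested genes 19.8% were higher in this way. None of the 8 passed the test over all genes, and the lowest adjusted p was 0.0948 for Nrp1 by edgeR. Some had few counts in WT (20 and 6 for Nrp1, 25 and 29 for Foxp3). The summed level of the 8 was 66.4 and 84.9 CPM in WT and 134 and 151 CPM in DKO. The summed level of 6 memory or activation markers was 19.3 and 22.1 CPM in WT and 33.4 and 34.1 CPM in DKO, of which Cd44 made up most. Of the 6, 2 were higher in both DKO libraries and 1 (Fasl) was lower in both, beside 19.8% and 18.8% of all tested genes. Of the other lists, the summed level was 142 and 184 CPM in WT and 166 and 150 CPM in DKO for 7 B cell markers, nearly all of it Ighm. For the CD8 markers it was 7.22 and 7.56 CPM in WT against 8.63 and 13.2 CPM in DKO, nearly all of it Cd8b1. Cd8a had between 1 and 6 counts in a library, and its groups overlapped. The summed level was at most 7.90 CPM in any library for the myeloid, 5.24 CPM for the NK and 1.89 CPM for the erythroid list. The part that such cells play in the receptor results was not tested. In bulk samples, fewer cells of a type and less RNA per cell cannot be told apart.

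Promoter sequences are shown for Gpr18, S1pr4 and Gpr183, the members with an entry that had the highest log2 fold changes, and for Cxcr4, which had the lowest, so that the regulatory DNA next to each start can be read beside the values. Promoters of 6 of the 9 members were matched in the RefSeq table used here (GRCm38.p6): Cxcr4, Itga4, S1pr4, Gpr18, Gpr183 and Itgb7. Each line below holds the 250 bases before the start, 5′ to 3′ on the gene's own strand, and capitals mark the forkhead core TAAACA or its reverse complement TGTTTA and the KLF core CACCC or its reverse complement GGGTG, 2 motifs that do not overlap in these sequences.
Gpr18, chr14:121915889-121916138, minus strand: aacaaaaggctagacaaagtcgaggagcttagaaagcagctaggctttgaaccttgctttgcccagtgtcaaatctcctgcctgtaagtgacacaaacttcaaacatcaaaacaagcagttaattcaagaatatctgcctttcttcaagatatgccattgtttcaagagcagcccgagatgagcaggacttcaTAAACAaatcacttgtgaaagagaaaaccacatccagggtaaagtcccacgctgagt
Gpr183, chr14:121965194-121965443, minus strand: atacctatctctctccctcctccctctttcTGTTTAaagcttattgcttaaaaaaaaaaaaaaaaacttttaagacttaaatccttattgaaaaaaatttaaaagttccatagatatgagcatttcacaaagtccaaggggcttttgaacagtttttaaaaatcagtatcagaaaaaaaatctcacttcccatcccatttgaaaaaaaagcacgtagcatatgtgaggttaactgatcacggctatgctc
S1pr4, chr10:81500138-81500387, minus strand: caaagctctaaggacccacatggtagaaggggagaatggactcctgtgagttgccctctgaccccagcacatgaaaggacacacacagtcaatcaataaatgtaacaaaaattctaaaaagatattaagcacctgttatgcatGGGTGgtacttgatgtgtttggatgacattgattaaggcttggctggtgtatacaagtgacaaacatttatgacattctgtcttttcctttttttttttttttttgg
Cxcr4, chr1:128592300-128592549, minus strand: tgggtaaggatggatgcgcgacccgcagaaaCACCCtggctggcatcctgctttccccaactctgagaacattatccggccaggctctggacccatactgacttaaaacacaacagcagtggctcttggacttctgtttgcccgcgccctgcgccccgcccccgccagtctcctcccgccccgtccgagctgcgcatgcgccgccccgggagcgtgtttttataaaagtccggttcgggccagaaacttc
The forkhead core occurred in Gpr18, starting at base -57 from the start, and in Gpr183, starting at base -220, and in none of the 4 other promoters. Over all 32851 RefSeq promoters of that length 12.0% held it. The KLF core occurred 1 time each in S1pr4 and Cxcr4, 4 times each in Itga4 and Itgb7 and not in Gpr18 or Gpr183, against 52.0% of all promoters with at least 1 match. A match is a description of letters and not evidence of binding.

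None of the 9 genes passed the test over all genes, and most lay slightly higher in DKO. The median log2 fold change of the 9 was 0.21, beside -0.015 for all tested genes and 0.018 for tested protein-coding genes. Gpr18 was the highest at 0.73 and Cxcr4 was the only one below 0, at -0.36. In the quasi-likelihood F test of edgeR, with p-values adjusted over all tested genes, 0 of the 9 passed at 0.05, and 0.124% of all tested genes did. At an unadjusted p below 0.05, 4 members were higher (Gpr18, S1pr1, S1pr4 and Gpr183) and 0 lower, with 3.82% of all tested genes higher and 4.35% lower. DESeq2 also called 0 members, while it called 0.162% of all genes higher and 0.486% lower. For 5 members the lower DKO value exceeded the higher WT value, for 1 (Cxcr4) the reverse held, and 3 overlapped. Among all tested genes 19.8% were higher and 18.8% lower in this way. Among tested protein-coding genes 22.3% were higher and 16.4% lower without overlap, and among the 2624 of these with at least the mean CPM of the lowest member, 29.7% and 15.5%. With 2 libraries against 2, an exact two-sided permutation test of a single gene cannot give a p below 0.333.

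**Figure D1:**
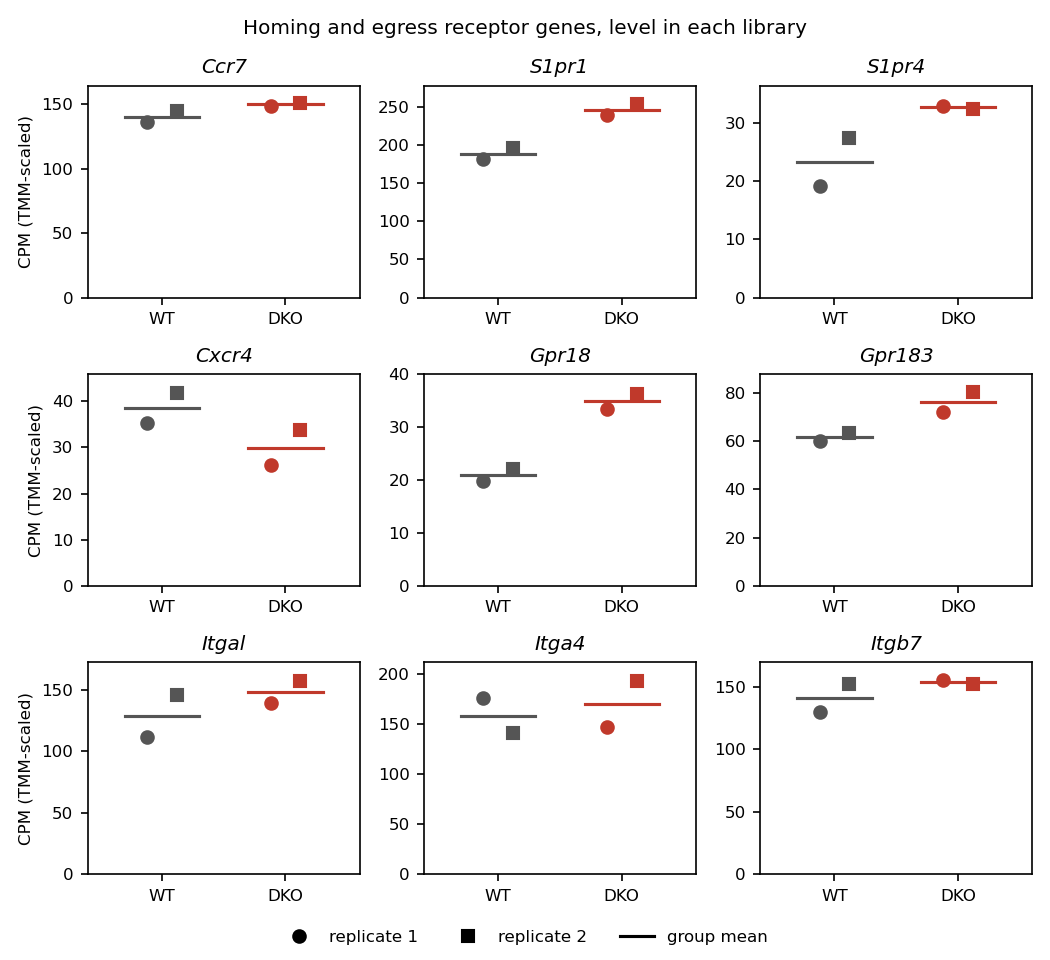
Level of each of the 9 receptor genes in each library, in CPM with TMM-scaled library sizes on a linear axis that starts at 0; circles are replicate 1, squares replicate 2 and lines the group means (n = 2 each). Gpr18 shows the widest gap relative to its spread (19.8 and 22.1 CPM in WT, 33.5 and 36.2 CPM in DKO), Cxcr4 lies lower in DKO, and the integrin genes overlap.

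Both sphingosine phosphate receptors of the list were higher in the DKO libraries, although neither passed the test. S1pr1 (ENSMUSG00000045092, GRCm38 chromosome 3, 115710433 to 115715072, minus strand), the receptor that draws T cells out of lymph nodes, had 2522 and 2255 estimated counts in WT and 4048 and 5462 in DKO. On the CPM scale it was at 182 and 196 in WT and 239 and 253 in DKO, so the groups did not overlap. The fitted fold was 1.31 (log2 0.38, SE 0.14, 95% interval 0.07 to 0.70, adjusted p = 0.506 by edgeR). All of its counts lay on 1 annotated transcript of 3046 bases.

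S1pr4 (ENSMUSG00000044199, chromosome 10, 81497747 to 81500132, minus strand), a related receptor for the same lipid in lymphocytes, was the member with the lowest level per length. It had 266 and 315 estimated counts in WT and 557 and 699 in DKO. Its CPM values were 19.2 and 27.3 in WT and 32.9 and 32.4 in DKO, close together in DKO and wider apart in WT. Its fold was 1.41 (log2 0.49, SE 0.18, 95% interval 0.08 to 0.91, adjusted p = 0.518 by edgeR). The value depended on which WT library was kept: leaving out WT replicate 1 gave a log2 difference of 0.26 and leaving out WT replicate 2 gave 0.78. Of its 31-base words, the unit in which kallisto compares sequence, 2.72% occurred in transcripts of other genes, so a small part of its counts could be shared.

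Gpr18 had the largest difference of the 9. GPR18 is a G protein-coupled receptor of lymphocytes, and its gene (ENSMUSG00000050350, chromosome 14, 121911253 to 121915781, minus strand) had 275 and 255 estimated counts in WT and 566 and 781 in DKO. Its level was 21.0 ± 1.62 CPM in WT and 34.9 ± 1.94 CPM in DKO (SD, n = 2 each), 1.66-fold higher. The log2 fold change of 0.73 (SE 0.14, 95% interval 0.41 to 1.06) exceeded that of 96% of tested protein-coding genes, with adjusted p = 0.139 by edgeR. Among the edgeR fits that changed only the filter or the scaling, it crossed the threshold in 3. Its adjusted p was 0.00148 with no filter on low counts, where 0.544% of all genes were called higher. It was 0.00973 with total counts only (1.51% called higher) and 0.0152 when libraries were scaled to the sum of 5 genes transcribed by RNA polymerase III (Rmrp, Rpph1, Rn7s1, Rn7s2 and Rn7sk; 3.67% called higher). S1pr1 and S1pr4 also passed in the last 2 of these fits, with adjusted p = 0.0453 and 0.0388 for total counts and 0.0246 and 0.0374 for the polymerase III scaling. Over all alternatives the adjusted p of Gpr18 ranged from 0.00148 to 0.609, and its log2 fold change from 0.66 to 1.68.

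Gpr183 (ENSMUSG00000051212, chromosome 14, 121952551 to 121965195, minus strand), the oxysterol receptor also known as EBI2, lies beside Gpr18. It had 833 and 728 estimated counts in WT and 1219 and 1729 in DKO, or 60.1 and 63.1 CPM against 72.1 and 80.2 CPM. The groups did not overlap, and the fold was 1.24 (log2 0.31, SE 0.13, 95% interval 0.002 to 0.61, adjusted p = 0.610 by edgeR). Both genes lie on the strand opposite to Ubac2 (chromosome 14, 121878620 to 122021034, plus strand) and inside it, so antisense reads matter where the strand setting of the counting is not given. Ubac2 was at 27.7 and 30.5 CPM in WT and 27.4 and 26.9 CPM in DKO, a log2 fold change of -0.10 (adjusted p = 0.916 by edgeR). No 31-base word of either receptor occurred in another gene's annotated transcripts on either strand. Introns were not searched, so this cannot address antisense reads from unspliced Ubac2 RNA, whose part was not tested. Per length, the ratio of Gpr18 to Ubac2 in TPM (transcript abundance per length) was 1.23 and 1.24 in WT against 2.10 and 2.32 in DKO, and that of Gpr183 to Ubac2 was 1.56 and 1.49 against 1.89 and 2.14.

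The chemokine receptors differed from each other. Ccr7 (ENSMUSG00000037944, chromosome 11, 99144196 to 99155077, minus strand), the main lymph node entry receptor, had 1884 and 1664 estimated counts in WT and 2510 and 3257 in DKO. Its CPM values of 136 and 144 in WT and 148 and 151 in DKO did not overlap but lay close together. The fold was 1.07, with a log2 interval of -0.20 to 0.39 (adjusted p = 0.911 by edgeR), and the log2 value was 0.05 without WT replicate 1 and 0.16 without WT replicate 2.

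Cxcr4 (ENSMUSG00000045382, chromosome 1, 128588199 to 128592293, minus strand), the receptor for CXCL12 of bone marrow and lymphoid stroma, was lower in DKO under TMM scaling. It had 489 and 481 estimated counts in WT and 443 and 727 in DKO, or 35.3 and 41.7 CPM against 26.2 and 33.7 CPM. Its fold was 0.78 (log2 -0.36, SE 0.17, 95% interval -0.74 to 0.03, adjusted p = 0.647 by edgeR). The log2 value was -0.17 without DKO replicate 1, -0.53 without DKO replicate 2 and -0.22 without WT replicate 2. Its sign changed with the scaling, to 0.005 with total counts only and 0.61 when scaled to polymerase III transcripts, where the median of all tested genes moved to 0.33 and 0.90. Relative to that median it was at -0.34, -0.32 and -0.29 under the 3 scalings, and Gpr18 at 0.75, 0.76 and 0.77. A change of scaling moves all genes by about the same amount, so these distances stay nearly alike by construction.

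**Figure D2:**
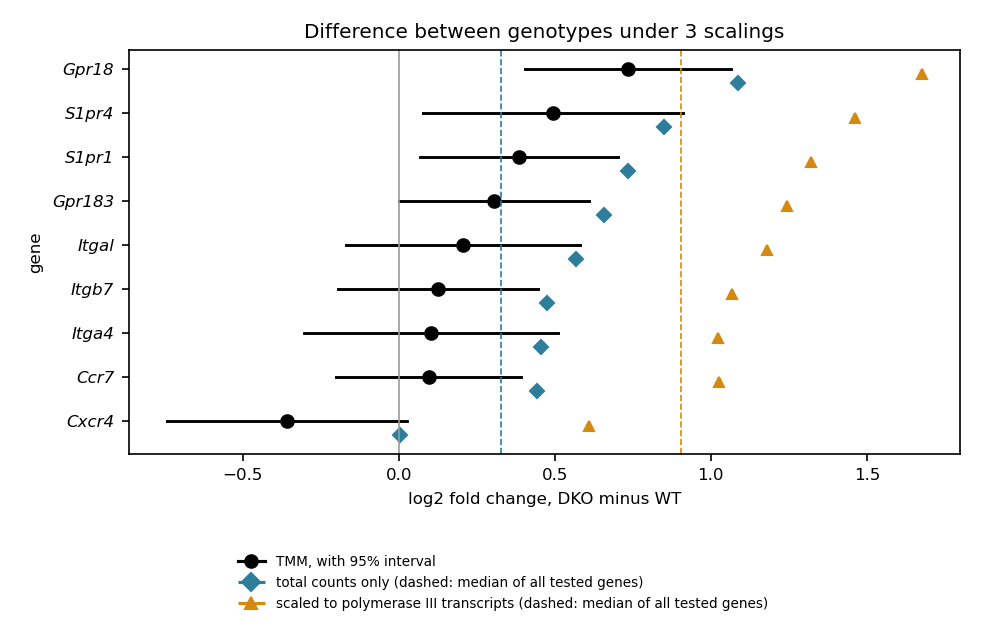
Log2 fold change (DKO minus WT) of each gene: black points with TMM scaling and 95% intervals from edgeR, diamonds with total counts only, triangles scaled to polymerase III transcripts; dashed lines mark the median of all tested genes under the last 2. Gpr18 has the highest and Cxcr4 the lowest value under each of the 3 scalings. Cxcr4 lies below the median of all tested genes in each although its own sign changes. Each scaling moves all genes by about the same amount, so the order and the side of the median are nearly fixed by construction.

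The integrin genes overlapped between the genotypes. Itgal (ENSMUSG00000030830, chromosome 7, 127296260 to 127335138, plus strand) was at 111 and 146 CPM in WT and 139 and 157 CPM in DKO (log2 0.21, 95% interval -0.17 to 0.58). Itgb7 (ENSMUSG00000001281, chromosome 15, 102215995 to 102231944, minus strand) was at 130 and 152 CPM in WT and 156 and 152 CPM in DKO (log2 0.13, interval -0.19 to 0.45). For both genes, WT replicate 1 was the lowest of the 4 libraries. Itga4 (ENSMUSG00000027009, chromosome 2, 79255426 to 79333123, plus strand) was at 176 and 142 CPM in WT and 148 and 194 CPM in DKO (log2 0.10, interval -0.30 to 0.51), and here the gap between libraries within each genotype was wider than the distance between them. Leaving out WT replicate 1 gave a log2 fold change of 0.02 for Itgal and 0.01 for Itgb7, while leaving out WT replicate 2 gave 0.43 and 0.26. The sign for Itga4 turned to -0.03 without WT replicate 2 and to -0.08 without DKO replicate 2, and its value was 0.27 without WT replicate 1 and 0.31 without DKO replicate 1. Adjusted p by edgeR was 0.814, 0.886 and 0.938 for Itgal, Itgb7 and Itga4.

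Transcript models show where the counts of the integrin genes lay. Itga4 had 85.1% to 88.7% of its estimated counts on its coding transcript of 9767 bases in the 4 libraries, and 8.1% to 12.0% on a processed transcript of 1826 bases. Since TPM divides by length, the coding transcript held only 56.2% of the TPM of Itga4 on average. Itgal divided its counts between coding transcripts of 5222 and 5195 bases, with 30.0% and 36.8% of counts on the longer one in WT and 53.9% and 46.8% in DKO. The 5195-base transcript held 48.1% and 39.0% in WT and 30.3% and 38.5% in DKO. The longer model was thus higher in both DKO libraries, but the models are nearly alike in length and their division by kallisto was not tested. Of the 31-base words of Itga4, 8.53% occurred on the reverse strand of other genes, mostly of Cerkl, which overlaps its end and had only 5 and 3 counts in WT against 17 and 19 in DKO. Ccr7, S1pr1, S1pr4, Gpr18 and Gpr183 each had 1 annotated transcript in the files.

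The heterodimer partners allow a check per length. The TPM ratio of Itgal to its partner Itgb2 was 0.461 and 0.478 in WT against 0.384 and 0.430 in DKO. The ratio of Itga4 to Itgb7 was 0.542 and 0.370 against 0.366 and 0.544, and that of Itgb7 to Itgb1, the other β partner of α4, was 7.77 and 10.7 against 9.55 and 9.79. The first ratio was lower in both DKO libraries, the other ratios overlapped, and in all 4 libraries Itgb7 stood well above Itgb1 per length. The first ratio includes a processed Itgal transcript of 330 bases, to which at most 8.5 estimated counts were assigned in any library. Its share of Itgal TPM was 11.2% for WT replicate 1 and 2.7% for WT replicate 2, but 1.1% and 0.9% for the DKO replicates. Whether the first ratio stays lower without that transcript was not tested. The ratio of Itga4 to Itgb7 includes the processed transcripts of Itga4, whose coding transcript held 56.2% of its TPM on average.

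Per length, Ccr7 and S1pr1 were the most abundant of the 9 in both genotypes. In WT the order by mean TPM was Ccr7 (5.90 ± 0.397), S1pr1 (5.04 ± 0.293), Itgb7 (4.35 ± 0.0516), Itgal (2.28 ± 0.0848), Itga4 (1.99 ± 0.553), Cxcr4 (1.85 ± 0.0732), Gpr183 (1.71 ± 0.127), Gpr18 (1.38 ± 0.0465) and S1pr4 (0.794 ± 0.111; SD, n = 2 each). Itgal and Itga4 overlapped in that order, as did Itga4 and Cxcr4, while the other neighbours did not. The level of Itga4 includes its processed transcripts, so its place rests in part on them. Its coding transcript held 56.7% and 58.7% of its TPM in WT and 58.9% and 50.6% in DKO. In DKO, S1pr1 (8.66 ± 1.16) stood above Ccr7 (8.31 ± 0.893) with overlapping libraries, Gpr18 (3.04 ± 0.464) moved from the eighth to the fifth place and Cxcr4 (1.90 ± 0.535) from the sixth to the eighth. These places are not firm, since the DKO libraries of Gpr18 overlapped those of its neighbours Itgal and Itga4, those of Itga4 overlapped Gpr183 and those of Cxcr4 overlapped S1pr4. TPM is scaled to all transcripts of a library, so these levels carry the difference between libraries that the TMM factors above correct for. The order of the genes was not tested between genotypes. The TPM levels were tested with limma in 3 settings given at the end, where no member was called.

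Ratios between members within a library do not depend on how libraries are scaled to each other. The ratio of S1pr1 to Ccr7 in TPM was 0.850 and 0.861 in WT against 1.02 and 1.06 in DKO. The count ratio of Gpr18 to Gpr183 was 0.330 and 0.350 in WT against 0.464 and 0.452 in DKO, a log2 difference of 0.43 with a pooled SD of 0.047. The count ratio of Cxcr4 to Gpr18 was 1.78 and 1.89 in WT against 0.783 and 0.931 in DKO, a log2 difference of -1.10 with a pooled SD of 0.132. Cxcr4 was lower in DKO against each of the 8 other members without overlap, and Gpr18 was higher against 7 of 8, the exception being S1pr4. The ratios among Ccr7, Itga4 and Itgb7 overlapped. Of all 36 pairs, 21 (58.3%) did not overlap between genotypes, beside 46.8% of the 3441376 pairs of protein-coding genes with at least the mean CPM of the lowest member. These pairs share genes and were not tested.

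**Figure D3:**
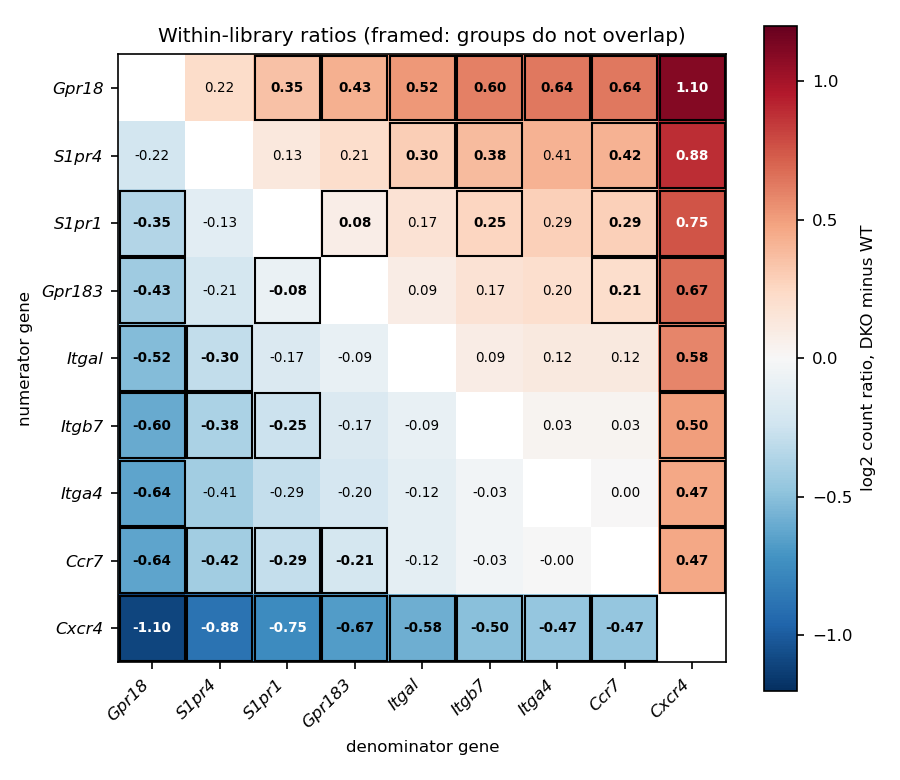
Log2 count ratio of the gene in each row to the gene in each column, DKO minus WT, as the difference of group means (n = 2 each); frames and bold type mark pairs whose WT and DKO libraries do not overlap. The row of Gpr18 holds positive values up to 1.10 and the row of Cxcr4 negative values throughout.

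The members were unlike in the sequence features of their main coding transcript. The 3′ UTR ran from 165 bases in Itgb7 to 6508 bases in Itga4, with a median of 787 bases over 10700 tested protein-coding genes. The pentamer ATTTA, part of AU-rich elements at which deadenylation factors are known to be recruited, occurred 16 times in the 3′ UTR of Itga4, 2 times in Gpr183, 1 time each in S1pr1, Cxcr4 and Itgal and not in Ccr7, S1pr4, Gpr18 or Itgb7. Among genes with a 3′ UTR of like length (the same give or take 20%), 39.0% held it for the length of Gpr18 (363 bases), 62.7% for that of S1pr4 (731 bases), 64.5% for that of Ccr7 (762 bases), 26.0% for that of Itgb7 and 82.7% for that of S1pr1 (1362 bases). The 4 genes without it include both the highest log2 fold changes of the 9 (Gpr18 and S1pr4) and lower ones (0.10 for Ccr7 and 0.13 for Itgb7). The heptamer TATTTAT occurred only in Itga4 among the 9, and its sites are shown with the motif in capitals, since they are the only such sites in the group. Of genes with a 3′ UTR of like length, 72.4% held the heptamer.
Itga4 site at base 1524 of the 3′ UTR: tttttgtagTATTTATttcatatat
Itga4 site at base 2088 of the 3′ UTR: atatttttaTATTTATtaataaaac
The GC content of the transcripts ran from 41.1% in Itga4 to 59.3% in S1pr4, beside a median of 50.2%. The deposited lengths of the Gpr18, Gpr183 and Itgb7 transcripts (1309, 2942 and 2674 bases) differed from those of GENCODE M21 (1498, 2724 and 2683 bases), so for these 3 the features come from a slightly different model than the one counted.

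The other genes of the trafficking machinery lay, like the receptors, slightly above the median. Of 139 genes in 9 lists, 105 were tested, 0 passed edgeR's test over all genes in either direction, and the lowest adjusted p was 0.344. At an unadjusted p below 0.05, 5 of the 105 were higher and 0 lower, beside 3.82% and 4.35% of all tested genes. Without overlap, 38 of the 105 were higher and 4 lower. These shares were 19.8% and 18.8% of all tested genes and 22.3% and 16.4% of tested protein-coding genes. Among protein-coding genes with at least the mean CPM of the lowest member they were 29.7% and 15.5%. The counts per list below have the same background. The median log2 fold change of the 105 was 0.11, beside -0.015 for all tested genes.

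Among 9 tested chemokine receptors of 21 listed (median 0.21), 0 passed and 3 were higher without overlap. Cxcr5, which leads cells to follicles, was at 1.30 and 1.39 CPM in WT and 2.48 and 3.11 CPM in DKO (log2 1.06, SE 0.46). Ccr8 had a log2 fold change of 1.41 (SE 1.11) from few counts, between 1 and 40 in a library. In the sphingosine phosphate list, 5 of 12 were tested and 0 passed (median 0.014). S1pr2, which opposes migration, had a log2 fold change of 0.51 (SE 0.40), the lipid-degrading lyase Sgpl1 -0.14 and the phosphatase Sgpp1 0.11, so the degrading enzymes were close to 0 in log2 fold. In the list of oxysterol enzymes and other lymphocyte receptors, 7 of 13 were tested and 0 passed (median 0.11), with Gpr65, a proton-sensing receptor, at 0.46, Gpr174, a lysophosphatidylserine receptor, at 0.27 and P2ry10 at -0.20.

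Other integrin chains had the highest list median, 0.32 over 9 tested of 15, with 0 past the test and 5 higher without overlap. Some of the chains above that median had few counts, between 3 and 60 in a library. Itgb3, the partner of αv, was at 56.2 and 56.5 CPM in WT and 71.3 and 98.2 CPM in DKO (log2 0.59, SE 0.17, adjusted p = 0.344 by edgeR). Itgb2, the partner of Itgal, was at 149 and 184 CPM in WT and at 199.7 and 206 CPM in DKO (log2 0.29), Itgav at 0.32 and Itgb1 at 0.23. In the integrin activation list all 15 were tested and 0 passed (median 0.10). Sipa1, which switches off the GTPase RAP1, was at 0.29, the talin gene Tln1, which opens integrins from inside, at 0.27, and the vinculin gene Vcl, at most 1.65 CPM in any library, at -1.32 (SE 0.70).

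G protein signalling genes were near 0 in log2 fold. All 20 were tested, 0 passed, and the median was 0.034. Gnai2, the main G protein α chain of chemokine receptors, was at 320 and 389 CPM in WT and 378 and 373 CPM in DKO (log2 0.08). Rgs2 and Rgs3, which shorten G protein signals, were at -0.25 and -0.14, and Gng2 at 0.19. In the motility and actin list all 26 were tested and 0 passed (median 0.13), with 11 higher and 0 lower without overlap. Myo1g, a membrane motor of lymphocytes, was at 0.32, Dock2, which activates RAC in migrating lymphocytes, at 0.33 and the ezrin-family kinase gene Stk10 at 0.30. Of the selectin ligand list, 6 of 9 were tested and 0 passed (median 0.21), with the mucin genes Spn at 0.36 and Selplg at 0.27 and the sialyltransferase gene St3gal6 at 0.39.

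**Figure D4:**
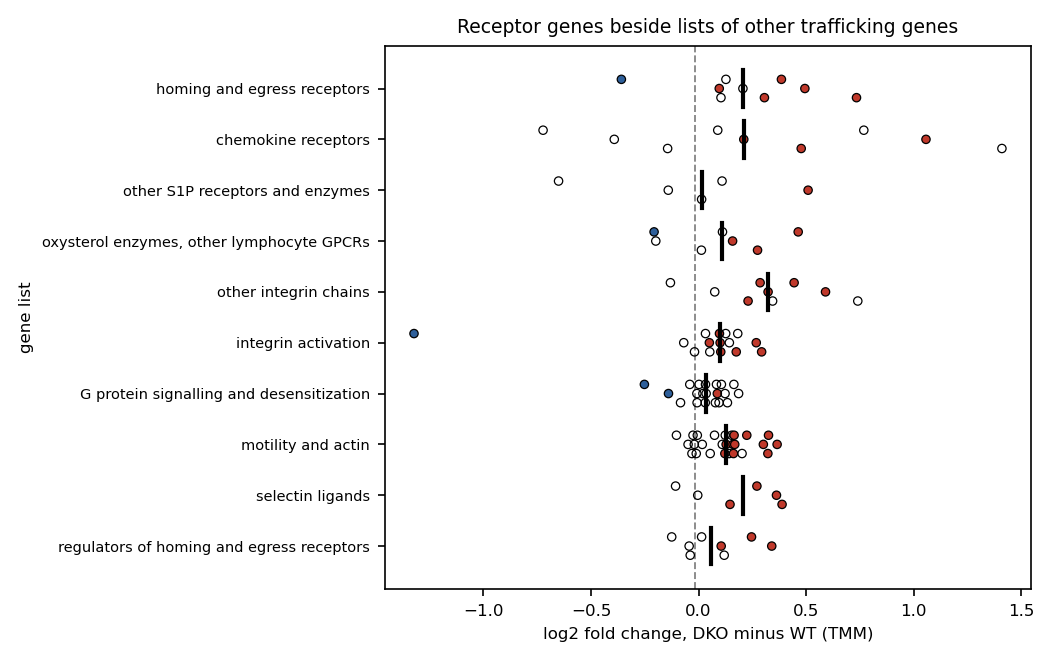
Log2 fold change (DKO minus WT, TMM) of each tested gene in the receptor list and in 9 lists of other trafficking genes; filled points are genes whose libraries do not overlap between genotypes (red higher, blue lower in DKO), black bars are list medians and the dashed line is the median of all tested genes. No gene shown passed the test over all genes, and the receptor list has a median of 0.21 beside medians of 0.014 to 0.32 in the other lists.

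Regulators of these receptors were close to their WT level in most cases. All 8 were tested and 0 passed (median 0.059). Klf2 was at 269 and 352 CPM in WT and 302 and 325 CPM in DKO (log2 0.01), Foxo1 at 167 and 181 against 166 and 172 CPM (log2 -0.04) and Cd69 at 60.7 and 70.5 against 65.1 and 77.3 CPM (log2 0.12), with overlapping libraries in each. Bach2, a repressor that keeps T cells naive, was at 0.34 (SE 0.14), Klf3 at 0.25 and Foxo3 at 0.10, and these 3 did not overlap.

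The tested protein-coding genes whose pattern over the 4 libraries was nearest to that of Gpr18 were Samsn1, Hvcn1 and Tnk2, by the Euclidean distance between centred log2 CPM over 4 libraries among 7293 genes with a mean of at least 5 CPM. The distances were 0.066, 0.074 and 0.085. Samsn1, an adaptor gene of lymphocytes, was at 9.45 and 10.5 CPM in WT and 16.6 and 16.9 CPM in DKO (log2 0.75). Hvcn1, a proton channel gene, and Tnk2, a kinase gene, had log2 fold changes of 0.70 and 0.81. None of the 3 passed edgeR's test (adjusted p = 0.212, 0.162 and 0.102). No other receptor of the list was among the 5 nearest genes.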

How the data were processed

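Per the submitters' processing notes, the authors estimated abundances with kallisto and named the builds mm10 and GRCm38; no version, strand setting or annotation is given in the sources used here. Per the labels' protocols, libraries came from a SMARTer stranded total RNA kit. The deposited estimated counts per transcript are not scaled for depth or length, and the deposited TPM values are the authors' abundances after division by effective length, per the file headers. Of 126782 transcripts, 98.7% joined to GENCODE M21 by identifier; those without a gene held 0.822% to 0.852% of counts and were left out.

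Estimated counts were summed per gene, rounded and tested over all genes with edgeR 4.0.16 in R 4.3.3 (filterByExpr, TMM, robust quasi-likelihood F test on genotype, Benjamini-Hochberg at 0.05). Each SE is the log2 fold change over the root of F. Alternatives used DESeq2 1.42.0, limma 3.58.1 on log2(TPM + 1), other scalings, filters and left-out libraries. The functions were tested on simulated data. The members, lists and rules were chosen with earlier results of these data known. From each list the text names up to 3 genes with the smallest unadjusted p, and Klf2, Foxo1, Cd69, Itgb1, Itgb2 and Gnai2; some items are not reported here. Replicate numbers are not stated to mark pairs. Counts carry no molecular identifiers, so reads copied from the same molecule cannot be told from reads of separate molecules. The p-values measure the spread between these libraries, which edgeR estimates for each gene with help from all tested genes.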

Additional observations from a re-analysis of the deposited data

How the results depend on the processing

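No member was called higher or lower by edgeR with TMM, and the same held with RLE size factors, DESeq2, protein-coding genes only, the effective length offset, the 3 TPM settings and each library left out. With total counts only, 3 members (Gpr18, S1pr1 and S1pr4) and 3 genes of the other trafficking lists were called higher; scaled to polymerase III transcripts, the same 3 members and 10 list genes; with no filter on low counts, Gpr18 and 1 list gene. No member was called lower in any of these. Over all tested genes, 7 higher and 9 lower became 194 and 66 with total counts only, 472 and 22 scaled to polymerase III transcripts, 42 and 126 by DESeq2, 141 and 254 with no filter on low counts, 35 and 16 with protein-coding genes only and 3 and 5 with the effective length offset. They became 1 and 4 with log2(TPM + 1), 0 and 1 with log2(TPM + 0.1), and 0 and 0 with log2(TPM + 1) and no filter. With 1 library left out they ranged from 12 to 34 higher and from 28 to 131 lower. The log2 fold change of Cxcr4 turned from -0.36 to 0.005 with total counts, 0.61 with polymerase III scaling, 0.014 with log2(TPM + 1) with and without the filter and 0.013 with log2(TPM + 0.1), and that of Itga4 from 0.10 to -0.031 without WT replicate 2 and -0.082 without DKO replicate 2, with 0.306 the highest over left-out libraries. The count of members higher without overlap went from 5 to 7 with total counts and 8 with polymerase III scaling. Among the other trafficking genes, 105 of them tested in the main fit, that count went from 38 to 88 and 98 in the same settings. The share over all tested genes is not given for these settings. Such counts are not compared for left-out libraries, since 1 library against 2 overlaps less often by design. The rise is thus not particular to the members. The member that was lower (Cxcr4) overlapped or was higher in the 2 scalings and the 3 TPM settings. Cxcr4 lay below the median of all tested genes in each setting except log2(TPM + 1) without a filter. The cause of these changes was not tested, beyond the shift of the median that each scaling makes by construction.

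The replicate numbers are shared between the genotypes without a statement that they mark pairs. Deviations from the group means of same-numbered libraries had a correlation of -0.316 over 12863 genes. With the replicate number as a block, 1 member (Gpr18, adjusted p = 0.0497 by edgeR) was called higher, and 53 genes were higher and 90 lower over all genes. The lowest count of a member in any library was 255.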
